A study of Mus musculus with 10 samples.

Results

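Integrins are receptors made of one α and one β subunit that tie cells to the extracellular matrix, and laminins are trimers of an α, a β and a γ chain that form the core sheet of basement membranes. The integrin and laminin genes were taken from the count table by symbol (Itga, Itgb, Lama, Lamb and Lamc subunits): 35 genes of 18103 in the table, of which 25 encode integrin subunits (17 α and 8 β) and 10 encode laminin chains. Of the 35 genes, 34 are described; Lama1 is not one of the 35 and was not analysed here. RNA was sequenced from 2 mouse mammary tumour cell lines, with 2 libraries in each of 5 groups. All are listed here as day 7, although the titles of the MTΔECad control samples name no day. Py2T long-term cells (Py2T-LT below) were kept as control, treated with a MEK inhibitor, or treated with BMP2 plus the MEK inhibitor. MTΔECad cells, labelled as mesenchymal breast cancer cells, were kept as control or treated with rosiglitazone (rosi), an agonist of the fat cell regulator PPARγ. The treatment protocol shared by all samples usually gives human recombinant BMP2 at 200 ng/ml, the MEK inhibitor PD98059 at 40 µM and rosiglitazone at 2 µM, with DMSO in the control medium, but the sample labels carry no dose. That protocol also adds rosiglitazone to BMP2-treated cancer cells after the first days, and the Py2T-LT labels do not name rosiglitazone, so it is not known here whether the BMP2 group also received it. The labels do not say whether either line is a single clone.

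In the mammary gland, integrins α3β1 and α6β4 hold epithelial cells to laminins that hold the α3 or α5 chain, and α6β4 is the receptor of hemidesmosomes. Fibroblasts and other mesenchymal cells use collagen receptors such as α1β1 and α11β1 and receptors of the RGD motif such as α5β1, α8β1, αvβ3 and αvβ5, and fat cells are wrapped in a basement membrane rich in laminin α4. BMP2 signals through SMAD proteins, and MEK is the kinase upstream of ERK.

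The libraries held 14659987 to 17249199 counts each, so that 1 count was at most 0.0696 counts per 1e6 counts (CPM) and 3 counts at most 0.209 CPM. The MTΔECad control libraries held 37 and 36 counts of Cdh1, which encodes E-cadherin, against 584 and 507 in the Py2T-LT controls; the name MTΔECad denotes deletion of that gene, and whole-gene counts do not show which exons are affected. The summed mammary epithelial markers (Epcam, Cdh1, Krt8, Krt18, Krt5, Krt14 and Trp63) lay between 314 and 685 CPM over the 10 libraries and the summed mesenchymal markers (Vim, Cdh2, Fn1, Zeb1, Zeb2, Twist1 and Snai2) between 7990 and 16200 CPM. Single epithelial markers moved apart. With BMP2 against the MEK inhibitor Krt14 and Cdh1 were higher and Krt8 and Krt18 lower, where 17.9% and 19.4% of all tested genes were. With rosiglitazone Krt14, Krt18, Krt8 and Epcam were higher and Trp63 lower, where 7.95% and 5.26% of all tested genes were. The 6 adipocyte markers summed to 6.34 to 11.1 CPM in the Py2T-LT controls, 231 to 263 CPM with the MEK inhibitor and 424 to 465 CPM with BMP2 added. In MTΔECad they summed to 83.7 to 88.4 CPM in the controls and 1870 to 2050 CPM with rosiglitazone. Nearly all of that control sum was Pparg (68.7 and 67.3 CPM) and Fabp4 (17.5 and 15.4 CPM), while Adipoq, Plin1, Cidec and Cd36 were each below 1 CPM there. Rosiglitazone left Pparg not called and the other 5 higher, where 7.95% of all tested genes were higher. The 5 proliferation markers summed to 661 to 666 CPM in the Py2T-LT controls, 916 to 947 CPM with the MEK inhibitor and 266 to 282 CPM with BMP2 added; their part in the results below was not tested. The Py2T-LT control libraries differed from each other more than those of any other group (a chi-square per gene of 17.22, against 5.5 to 7.89 in the other groups), and Lama5 is one of the genes that shows it. These are bulk samples, in which fewer cells of a type and less RNA per cell cannot be told apart.

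Of the 34 genes, 26 had enough counts to be tested, 18 integrins and 8 laminins. The other 8 were Itga4, Itga9, Itgae, Itgal, Itgam, Itgax, Itgb6 and Lama2. None of these had more than 9 counts in any library, and the highest level among them was 0.562 CPM, for Lama2 in 1 library. Tests used edgeR's quasi-likelihood test on all 10 libraries and all 13149 genes with enough counts, with Benjamini-Hochberg adjustment over all of them, and a gene is called higher or lower below an adjusted p of 0.05. Of the 26 tested genes, only Itga2b, the platelet fibrinogen receptor subunit, was called in none of the 5 comparisons; the nearest was rosiglitazone, where its log2 fold change was -0.60 ± 0.20 (SE; edgeR adjusted p = 0.052). Its level was 3.08 to 7.38 CPM over the libraries, where the 2 platelet and megakaryocyte markers in the table (Pf4 and Ppbp) summed to 0.125 to 0.626 CPM. The rosiglitazone value passed when only the groups compared were fitted and with no filter on counts.

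Promoter sequences are shown for the neighbours Itga1 and Itga2 on chromosome 13, which moved in opposite directions with BMP2. They are also shown for Itgb5 and Lamb3, which rose with BMP2. Whether these sequences play a part in those changes was not tested. The sequences are from RefSeq (GRCm38.p6, the assembly that mm10 is built from), run 5′ to 3′ on the gene's own strand and lie before a transcript start in that table. Itga1 is chr13:115101965-115102214, minus strand; Itga2 is chr13:114932101-114932350, minus strand; Itgb5 is chr16:33829415-33829664, plus strand; Lamb3 is chr1:193301744-193301992, plus strand. The Itga1, Itga2 and Itgb5 windows end at the base before the annotated gene, while the Lamb3 window lies inside its gene, which is annotated from 193294353 to 193343878. Capitals mark matches to the GC box letters GGGCGG on either strand.
Itga1: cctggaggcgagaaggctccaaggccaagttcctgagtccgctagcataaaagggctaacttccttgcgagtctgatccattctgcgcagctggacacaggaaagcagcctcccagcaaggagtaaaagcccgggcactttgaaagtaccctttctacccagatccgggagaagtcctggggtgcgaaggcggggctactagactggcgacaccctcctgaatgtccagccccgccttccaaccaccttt
Itga2: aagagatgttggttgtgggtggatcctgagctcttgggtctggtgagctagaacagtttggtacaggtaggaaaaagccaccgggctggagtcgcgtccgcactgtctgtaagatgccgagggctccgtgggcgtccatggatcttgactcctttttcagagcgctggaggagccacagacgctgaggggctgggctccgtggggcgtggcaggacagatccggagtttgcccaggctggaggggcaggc
Itgb5: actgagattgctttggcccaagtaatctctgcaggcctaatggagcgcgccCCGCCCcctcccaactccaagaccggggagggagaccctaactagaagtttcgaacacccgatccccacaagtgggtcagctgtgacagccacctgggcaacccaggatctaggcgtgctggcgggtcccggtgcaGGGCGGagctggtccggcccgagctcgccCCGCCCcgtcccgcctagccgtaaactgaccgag
Lamb3: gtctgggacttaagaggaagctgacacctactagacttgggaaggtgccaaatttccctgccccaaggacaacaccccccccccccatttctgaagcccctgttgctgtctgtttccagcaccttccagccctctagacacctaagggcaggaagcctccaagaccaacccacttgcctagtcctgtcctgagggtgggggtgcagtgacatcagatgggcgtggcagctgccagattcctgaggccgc
The Itgb5 window held 3 GC boxes and the other 3 windows held no match to any of the motifs searched. Over the 26 windows found for 23 of the genes, GGGCGG was present in 9, against 32.7% of all 32851 windows in the table. GGCGCC, a GC-rich SMAD site, was present in 3 (9.59% of all windows), the TEAD site GGAATG in 3 (12.6%), the AP-1 site TGANTCA in 1 (6.75%), the TATA box TATAAA in 0 (12.4%) and the PPAR site, a pair of AGGTCA copies with 1 base between them, in 0 (0.0335%). Both strands were searched in the bases before the start, and a match is a description of these letters, not of binding.

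The MEK inhibitor alone changed few integrin and laminin genes by a large factor, and one stood out in size: Itga8, the α subunit of the nephronectin and fibronectin receptor α8β1. Against the Py2T-LT controls 4 of the 26 tested genes were higher and 7 lower, where 8.98% of all tested genes were higher and 7.52% lower. The median log2 fold change of the 26 genes was -0.08, against 0.011 over all tested genes. The higher genes were Itga8, Itgb3, Itgb4 and Itga6, and the lower genes were Itga3, Itga7, Itgb1, Lama4, Lama5, Lamb1 and Lamb2, so that 4 integrins rose and 3 fell, and 4 laminins fell.

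Adding BMP2 moved more of them. Against the Py2T-LT controls, BMP2 plus MEK inhibitor left 8 of the 26 genes higher and 10 lower, where 19.1% of all tested genes were higher and 19.4% lower, with a median log2 fold change of -0.13 (0.002 over all tested genes). Against the MEK inhibitor alone, whose labels differ by BMP2 alone, 9 were higher and 9 lower, where 17.9% and 19.4% of all tested genes were, with a median of -0.05 (0.005). Those higher were Lamb3, Itga1, Itga11, Itgb3, Itgb5, Itga7, Lamb2, Lama4 and Itgb1. Those lower were Itgb2, Itgb7, Itgb8, Itgb4, Itga2, Itga3, Lamb1, Lamc1 and Itga6. The 2 BMP2 comparisons share their treated libraries, and the 2 comparisons with the Py2T-LT controls share those.

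Rosiglitazone in MTΔECad cells left 4 of the 26 genes higher (Lamb3, Lamc3, Lama4 and Itga2) and 4 lower (Itgb2, Itga3, Itgb5 and Lamc1), where 7.95% of all tested genes were higher and 5.26% lower; the median was -0.13 (-0.023 over all tested genes). Only 1 of the 18 integrins rose and 3 fell, while 3 of the 8 laminins rose and 1 fell. Between the untreated lines, 13 of the 26 genes were higher in MTΔECad and 9 lower, where 29.3% and 31.7% of all tested genes were, with a median of 0.35 (-0.029). The plot of fitted changes shows the 26 genes in the order of their roles.

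**Figure D1:**
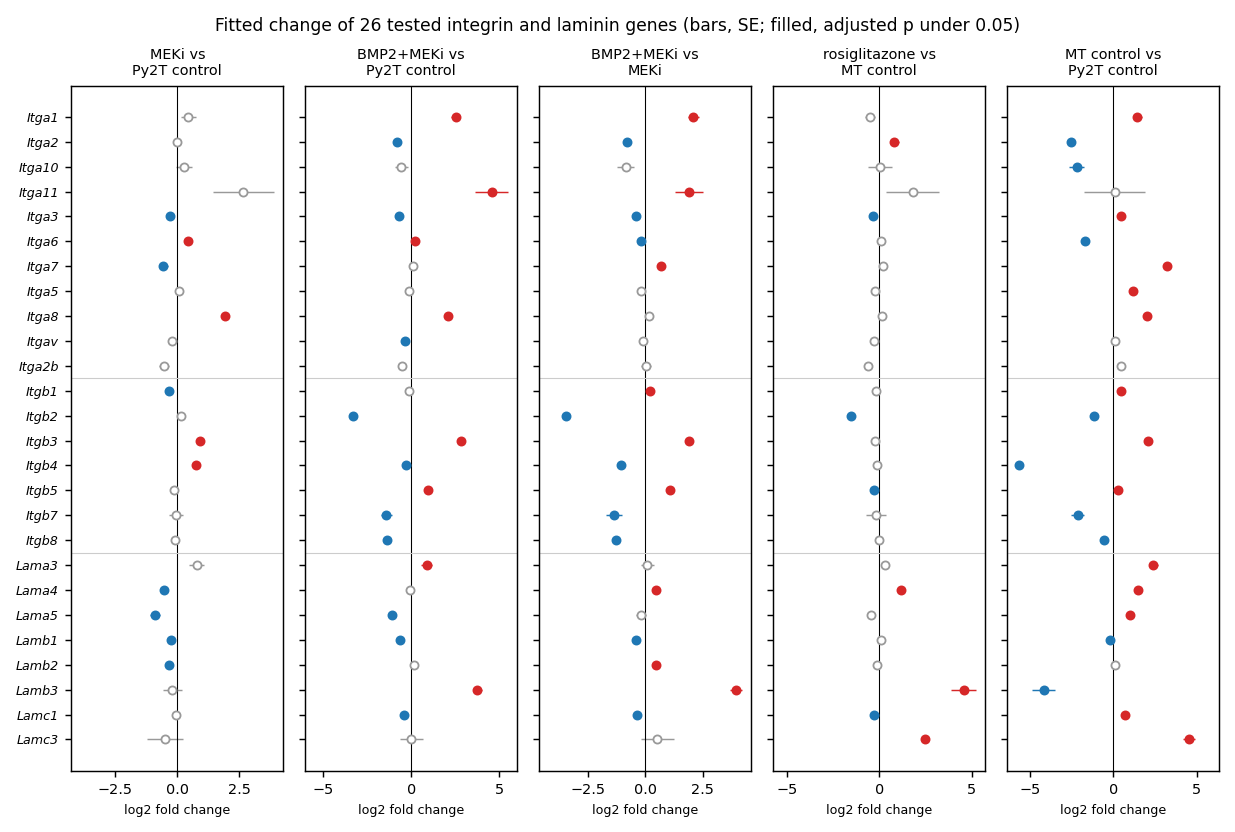
Fitted log2 fold change (x axis, with a different range in each panel) of 26 tested integrin and laminin genes (y axis) in the 5 comparisons; bars are the SE, filled red points were called higher, filled blue points lower and open points were not called. Itga8 (1.93) lies furthest right among the called genes with the MEK inhibitor, Lamb3 (3.94) and Itgb2 (-3.46) lie at opposite ends in BMP2 plus MEK inhibitor against MEK inhibitor, and Lamb3, Lamc3 and Lama4 are the called genes furthest right with rosiglitazone.

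Among the collagen receptors, BMP2 raised Itga1 and lowered Itga2. Itga1, which pairs with β1 to bind basement membrane collagen, stood at 1.35 and 1.62 CPM in the Py2T-LT controls, 2.2 and 1.86 CPM with the MEK inhibitor, 9.44 and 7.79 CPM with BMP2 added, 3.69 and 4.32 CPM in the MTΔECad controls and 2.16 and 3.51 CPM with rosiglitazone. The BMP2 libraries were the 2 highest and overlapped no other group. The log2 fold change against the MEK inhibitor was 2.08 ± 0.24 (edgeR adjusted p = 3.4e-07), and that of the MEK inhibitor against its control was 0.44 ± 0.31 (edgeR adjusted p = 0.40). Itga2, the platelet and epithelial collagen receptor subunit, stood at 11.7 and 9.81 CPM in the Py2T-LT controls, 10.5 and 10.8 CPM with the MEK inhibitor, 5.96 and 6.16 CPM with BMP2 added, 1.88 and 1.75 CPM in the MTΔECad controls and 3.02 and 3.37 CPM with rosiglitazone. Within Py2T-LT its BMP2 step was the reverse of that of Itga1, with the BMP2 libraries below both other groups. The MEK inhibitor libraries of Itga2 lay between its 2 control libraries, at a log2 fold change of -0.02 (edgeR adjusted p = 0.96). The change with BMP2 against the MEK inhibitor was -0.81 ± 0.16 (edgeR adjusted p = 0.00038).

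Both genes lie on the minus strand of chromosome 13 with 25978 bases between them, Itga2 at 114833081 to 114932100 and Itga1 at 114958079 to 115101964 (GRCm38.p6), and Pelo lies within Itga1. Pelo was called in none of the 5 comparisons, at 7.12 to 10.4 CPM over the 10 libraries. Per kilobase of exon, Itga1 rose from 3.38% and 4.99% of the summed level of the 4 collagen-binding α subunits in the Py2T-LT controls to 28.9% and 24.7% with BMP2 plus MEK inhibitor, and Itga2 went from 76.2% and 78.5% to 47.5% and 50.9%. With the longest transcript as the length, the 2 BMP2 libraries gave 40.5% and 35.4% for Itga1 and 39.4% and 43.2% for Itga2, so that the order of the pair differed between these libraries, while by union exon length Itga2 was the highest of the 4 in each Py2T-LT library.

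Itga11, the fibrillar collagen receptor subunit of fibroblasts, was counted 18 and 11 times with BMP2, 4 and 4 times with the MEK inhibitor and 0 and 1 times in the Py2T-LT controls. The ratio of its level with BMP2 to that with the MEK inhibitor was 3.81 (95% counting interval 1.7 to 9.63), and to the control 29.1 (4.82 to 1190). Such intervals cover counting error only. Its called log2 fold change against the control, 4.55 ± 0.92 (edgeR adjusted p = 0.00042), became 3.7 without Py2T-LT control replicate 1 and 6.85 without replicate 2. The call against the MEK inhibitor, 1.90, was lost without BMP2 plus MEK inhibitor replicate 1 (1.4), without MEK inhibitor replicate 1 (2.01), without replicate 2 (1.78) and with DESeq2. Itga10, the cartilage collagen receptor subunit, was at 2.58 CPM or less in each library and was called only between the lines, at -2.21 ± 0.47 in MTΔECad against Py2T-LT controls (edgeR adjusted p = 0.00041), and at -3.11 without MTΔECad control replicate 2.

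Rosiglitazone raised Itga2 by a log2 fold change of 0.81 ± 0.24 (edgeR adjusted p = 0.027), and neither of its libraries overlapped the MTΔECad controls. The call was lost with DESeq2 and without any one of the 4 libraries, with values of 0.73 to 0.89. Itga1 had a log2 fold change of -0.51 ± 0.25 with rosiglitazone (edgeR adjusted p = 0.23). Between the untreated lines the 2 neighbours again lay on opposite sides: Itga1 was higher in MTΔECad by 1.43 ± 0.28 (edgeR adjusted p = 0.00016) and Itga2 lower by -2.56 ± 0.20 (edgeR adjusted p = 4.5e-10).

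**Figure D2:**
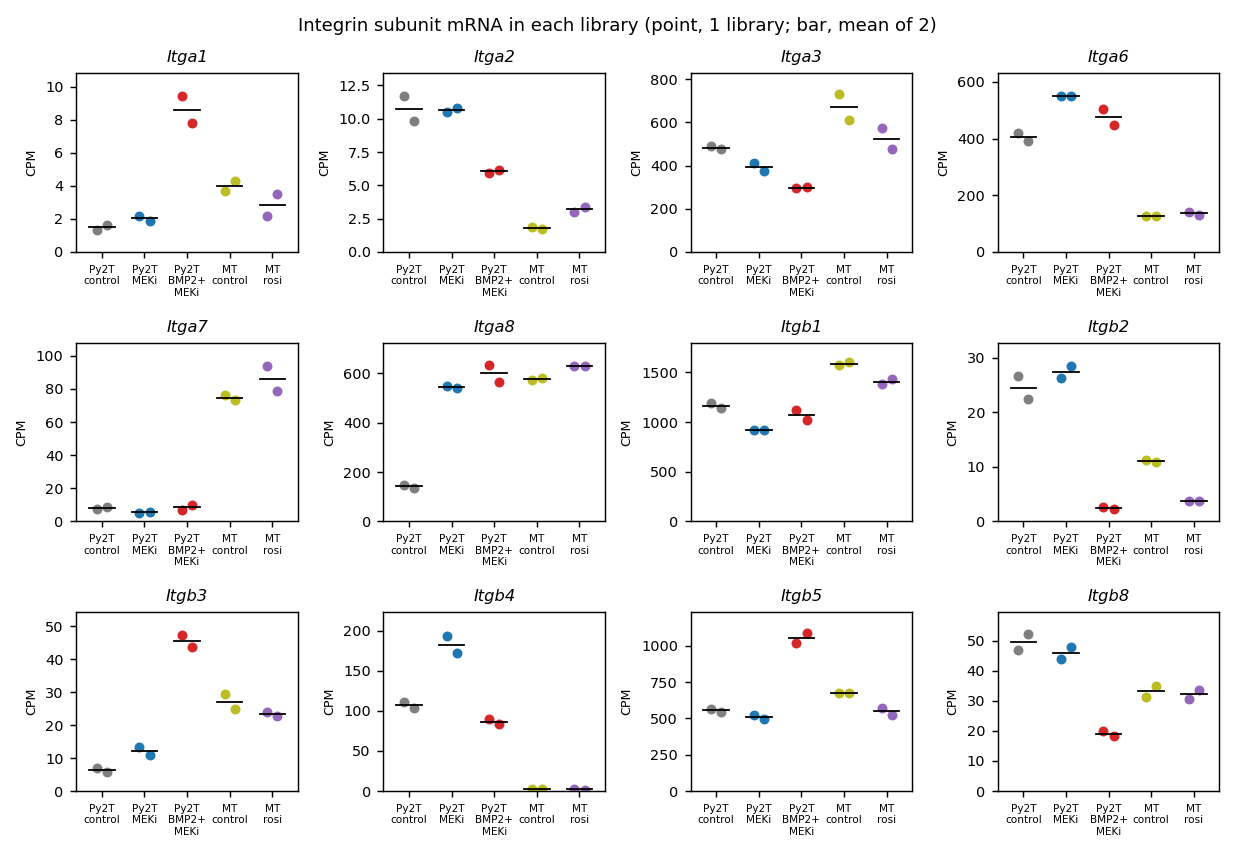
CPM (y axes, from 0) of 12 integrin subunit genes in each of the 10 libraries; points are libraries, bars are the mean of the 2 libraries of a group, and MT is MTΔECad. Itga8 is low only in the Py2T-LT controls (148 and 136 CPM), Itgb2 is lowest with BMP2, Itgb3 and Itgb5 are highest with BMP2, and Itgb4 is near 2 CPM in the MTΔECad libraries.

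Among the laminin-binding integrins, the fitted changes of Itga6, Itga7 and Itgb4 were larger between the untreated lines than with any treatment, and that of Itga3 was not. Itga6, the laminin receptor subunit of epithelial and stem cells that pairs with β1 or β4, was at 420.9 and 391.8 CPM in the Py2T-LT controls, 552 and 550 CPM with the MEK inhibitor, 504 and 449 CPM with BMP2 added, 127 and 127 CPM in the MTΔECad controls and 140 and 132 CPM with rosiglitazone. All 6 Py2T-LT libraries lay above all 4 MTΔECad libraries, and the MEK inhibitor libraries lay above their controls. The change between the untreated lines was -1.68 ± 0.08 (edgeR adjusted p = 9.1e-14) and with the MEK inhibitor 0.44 ± 0.07 (edgeR adjusted p = 0.00022). Itga7, the laminin receptor subunit of muscle, was at 7.45 and 8.81 CPM in the Py2T-LT controls, 5.04 and 5.91 CPM with the MEK inhibitor, 7.23 and 10.0 CPM with BMP2 added, 76.3 and 73.3 CPM in the MTΔECad controls and 93.6 and 78.9 CPM with rosiglitazone. It was thus the reverse of Itga6 between the lines, with no overlap, at a log2 fold change of 3.20 ± 0.14 (edgeR adjusted p = 2.7e-14). The 3 skeletal muscle markers in the table (Acta1, Des and Ttn) summed to 0.412 to 2.19 CPM over the 10 libraries, and rosiglitazone gave Itga7 a log2 fold change of 0.21 (edgeR adjusted p = 0.28).

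Itga3, which binds laminins of the α3 and α5 chains with β1, was at 489 and 475 CPM in the Py2T-LT controls, 410 and 374 CPM with the MEK inhibitor, 295 and 301 CPM with BMP2 added, 731 and 610 CPM in the MTΔECad controls and 574 and 477 CPM with rosiglitazone. It was called in all 5 comparisons, and the BMP2 libraries were the lowest of the 10. Against the Py2T-LT control its log2 fold change with BMP2 plus MEK inhibitor was -0.69 ± 0.09 (edgeR adjusted p = 5.1e-06), and between the untreated lines it was 0.48 ± 0.09 (edgeR adjusted p = 0.00018). The smaller change with rosiglitazone, -0.35 ± 0.09, was not called without rosiglitazone replicate 2 (-0.22) or MTΔECad control replicate 1 (-0.21). Per kilobase, Itga6 stood at 0.545 and 0.522 times the level of Itga3 in the Py2T-LT controls, at 1.08 and 0.945 times with BMP2 plus MEK inhibitor, and at 0.11 and 0.132 times in the MTΔECad controls. With the longest transcript as the length the ratios were 0.971 and 0.93 in the Py2T-LT controls and 1.93 and 1.69 with BMP2.

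Itgb4, the hemidesmosome subunit that pairs only with α6, was at 110.9 and 103.5 CPM in the Py2T-LT controls, 193 and 172 CPM with the MEK inhibitor, 89.8 and 83.4 CPM with BMP2 added, 2.16 and 2.07 CPM in the MTΔECad controls and 2.1 and 1.79 CPM with rosiglitazone. The 4 MTΔECad libraries lay far below the 6 Py2T-LT libraries, and no Py2T-LT groups overlapped. The 7 mammary epithelial markers summed to 633 to 685 CPM in the Py2T-LT controls and 435 to 437 CPM in the MTΔECad controls. The sum hides a split among the 6 tested. Trp63 was called higher in MTΔECad (154 and 141 CPM, against 7.14 and 5.81 CPM), and Cdh1, Krt18 and Epcam were called lower. Of all tested genes 29.3% were higher and 31.7% lower. The part of these markers in the change of Itgb4 was not tested. The log2 fold change between the untreated lines was -5.66 ± 0.13 (edgeR adjusted p = 7.7e-19). The MEK inhibitor raised Itgb4 by 0.77 ± 0.08 (edgeR adjusted p = 7.1e-07), and with BMP2 added it was lower than with the MEK inhibitor alone, at -1.08 ± 0.08 (edgeR adjusted p = 1.1e-09). Per kilobase, Itgb4 stood at 0.339 and 0.34 times the level of Itga6 in the Py2T-LT controls, 0.45 and 0.402 times with the MEK inhibitor, 0.229 and 0.239 times with BMP2 added, and 0.0174 to 0.0218 times in the MTΔECad libraries. With the longest transcript as the length the Py2T-LT control ratio was 0.183 in each library, and those with BMP2 were 0.124 and 0.129. Itgb1, the common partner of the matrix-binding α subunits, ranged from 917 to 1600 CPM over the 10 libraries and its called changes were between -0.34 and 0.45 on the log2 scale.

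Among the α subunits of the receptors of the RGD motif, Itga8 had the largest called changes. It was at 148 and 136 CPM in the Py2T-LT controls, 548 and 539 CPM with the MEK inhibitor, 633 and 566 CPM with BMP2 added, 573 and 583 CPM in the MTΔECad controls and 631 and 629 CPM with rosiglitazone. The 2 Py2T-LT control libraries were the only low ones, and the other 8 libraries lay between 539 and 633 CPM. The MEK inhibitor raised it by a log2 fold change of 1.93 ± 0.08, or 3.82-fold (edgeR adjusted p = 3.7e-13). Adding BMP2 to the MEK inhibitor gave 0.14 ± 0.07 (edgeR adjusted p = 0.14), and rosiglitazone gave 0.13 ± 0.07 in MTΔECad (edgeR adjusted p = 0.34). A non-coding gene, E030013I19Rik, overlaps the start of Itga8 on the other strand, and whether the counting used strand is not given in the sources used here. E030013I19Rik had at most 4.26 CPM, and was also higher with the MEK inhibitor (3.16 ± 0.34; edgeR adjusted p = 7.9e-07).

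Per kilobase, Itga8 went from 0.677 and 0.509 times the level of Itgav in the Py2T-LT controls to 2.57 and 2.65 times with the MEK inhibitor. Itgav, which encodes the αv subunit shared by receptors of vitronectin, fibronectin and latent TGFβ, lay between 256 and 407 CPM over the 10 libraries. It was called once, at -0.34 ± 0.10 with BMP2 plus MEK inhibitor against the control (edgeR adjusted p = 0.012), and not without BMP2 plus MEK inhibitor replicate 2 (-0.21) or Py2T-LT control replicate 2 (-0.18). Itga5, the classical fibronectin receptor subunit, was at 46.7 to 56.1 CPM in the 6 Py2T-LT libraries and 95.4 to 133 CPM in the 4 MTΔECad libraries, with no overlap, and was called only between the lines, at 1.19 ± 0.10 (edgeR adjusted p = 2.2e-09).

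**Figure D3:**
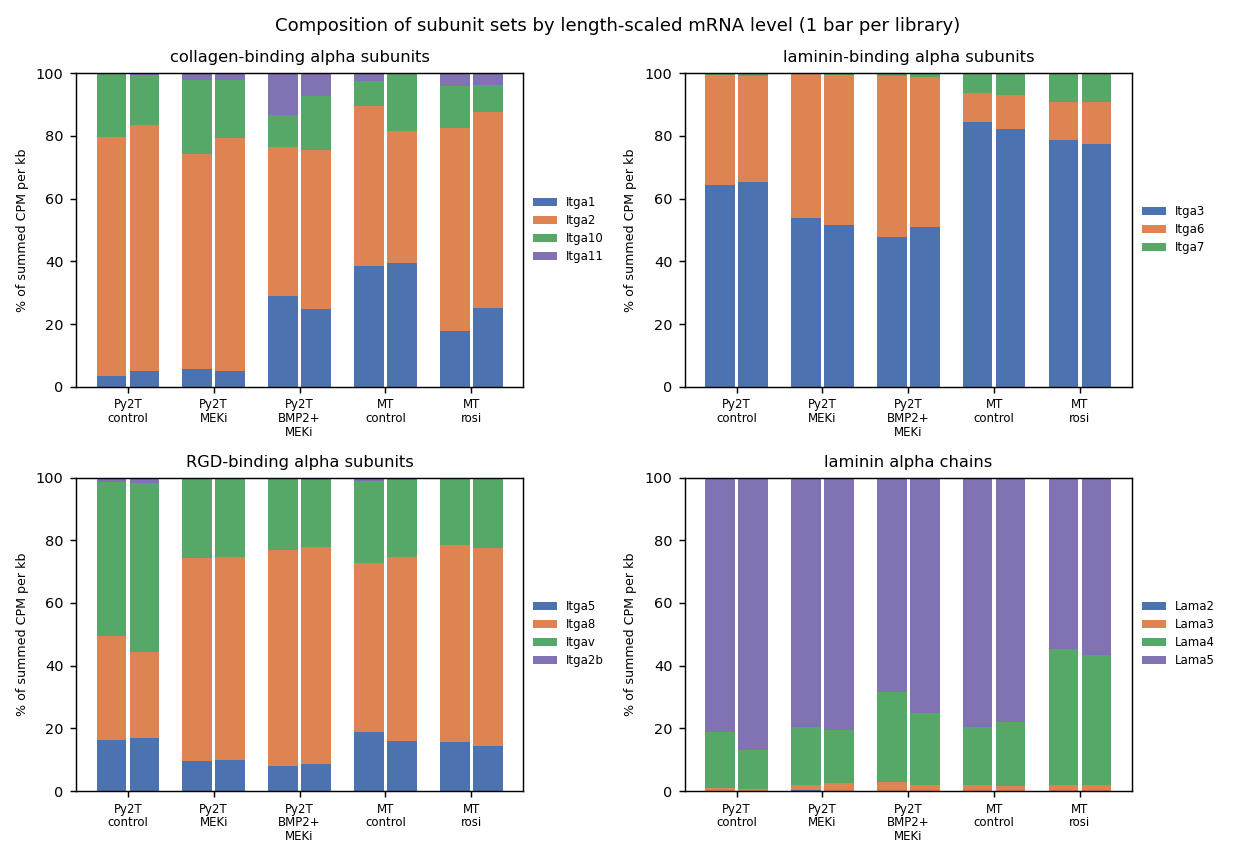
Share of each subunit (y axis, percent of the summed CPM per kilobase of union exon length) within the collagen-binding α, laminin-binding α and RGD-binding α integrins and the laminin α chains; each bar is 1 library and MT is MTΔECad. Itga1 takes 24.7% to 28.9% of the collagen-binding set with BMP2 and 3.38% to 4.99% in the Py2T-LT controls, Itga8 takes the largest RGD-binding share in all libraries except the Py2T-LT controls, and Lama4 takes 41.4% to 43.3% of the laminin α chains with rosiglitazone.

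The β partners of αv moved apart when BMP2 was added. Itgb3, which with αv binds vitronectin and osteopontin, was at 6.9 and 5.87 CPM in the Py2T-LT controls, 13.4 and 11.0 CPM with the MEK inhibitor, 47.2 and 43.6 CPM with BMP2 added, 29.4 and 24.8 CPM in the MTΔECad controls and 24.0 and 22.8 CPM with rosiglitazone. The 3 Py2T-LT groups formed 3 separate steps, with the BMP2 libraries the highest of all 10. The log2 fold change was 0.92 ± 0.15 for the MEK inhibitor (edgeR adjusted p = 0.00014) and a further 1.90 ± 0.13 for BMP2 (edgeR adjusted p = 1e-10). Itgb5, which with αv binds vitronectin, was at 566 and 547 CPM in the Py2T-LT controls, 523 and 493 CPM with the MEK inhibitor, 1020 and 1090 CPM with BMP2 added, 674 and 676 CPM in the MTΔECad controls and 575 and 525 CPM with rosiglitazone. The BMP2 libraries stood above all others, at 1.05 ± 0.07 against the MEK inhibitor (edgeR adjusted p = 2.6e-10), where the MEK inhibitor itself gave -0.13 (edgeR adjusted p = 0.26). Itgb5 was, per kilobase, above Itgb1 only in the BMP2 group (296 ± 13.6 against 263 ± 17.5, SD, n = 2); in the Py2T-LT controls it stood at 157 ± 3.76 against 285 ± 8.63.

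Itgb8, which with αv binds latent TGFβ, was at 46.9 and 52.4 CPM in the Py2T-LT controls, 43.9 and 47.9 CPM with the MEK inhibitor, 20.01 and 18.19 CPM with BMP2 added, 31.4 and 34.9 CPM in the MTΔECad controls and 30.7 and 33.8 CPM with rosiglitazone. The BMP2 libraries were the lowest, while the MEK inhibitor libraries overlapped their controls. The change with BMP2 against the MEK inhibitor was -1.27 ± 0.11 (edgeR adjusted p = 4.7e-09). Per kilobase, the order of the αv partners in the Py2T-LT controls was Itgb5, Itgb8, Itgb3 and Itgb6, and with BMP2 Itgb3 stood above Itgb8. Itgb6, the epithelial αv partner, had at most 3 counts in any library.

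Itgb2, the β subunit of the leukocyte integrins, fell most of the 26 tested genes when BMP2 was added to the MEK inhibitor. It was at 26.7 and 22.4 CPM in the Py2T-LT controls, 26.3 and 28.5 CPM with the MEK inhibitor, 2.74 and 2.27 CPM with BMP2 added, 11.2 and 11.0 CPM in the MTΔECad controls and 3.74 and 3.78 CPM with rosiglitazone. It was lower with BMP2 and with rosiglitazone than in the controls of each line, without overlap. Whether the BMP2 group also received rosiglitazone is not known here. The log2 fold change was -3.46 ± 0.16 for BMP2 against the MEK inhibitor (edgeR adjusted p = 5.3e-13) and -1.56 ± 0.17 for rosiglitazone (edgeR adjusted p = 5.6e-07). The MEK inhibitor alone gave 0.16 (edgeR adjusted p = 0.43). The leukocyte α partners in the gene set were nearly absent, with at most 1 count of Itgal, 3 of Itgam and 4 of Itgax in any library. Of the 10 leukocyte markers, 5 were in the table, and their sum lay between 1.17 and 6.32 CPM over the libraries, 1.17 to 1.44 CPM in the Py2T-LT controls where Itgb2 was at 22.4 CPM or more. In MTΔECad that sum was 5.29 to 6.32 CPM in the controls and 2.2 to 2.62 CPM with rosiglitazone, and its part in the change of Itgb2 there was not tested. Most of the MTΔECad sum was Cd53, at 4.8 and 5.32 CPM in the controls and 2.16 and 1.72 CPM with rosiglitazone. Of the 3 leukocyte markers tested, rosiglitazone left Cd53 lower and 2 not called, where 5.26% of all tested genes were lower. Between the untreated lines Cd53 was higher in MTΔECad and Lyz2 lower, where 29.3% and 31.7% of all tested genes were. Laptm5, a marker of all leukocytes, had at most 1 count in any library. Itgb7, the gut-homing lymphocyte subunit, was at most 2.24 CPM and was lower with BMP2 than with the MEK inhibitor, at -1.36 ± 0.34 (edgeR adjusted p = 0.0034).

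Among the laminins, the largest changes with treatment were in Lamb3 with BMP2 and in Lamb3, Lamc3 and Lama4 with rosiglitazone. Lamb3, the β chain of the epithelial laminins that hold α3, was at 1.6 and 1.06 CPM in the Py2T-LT controls, 1.49 and 0.876 CPM with the MEK inhibitor, 17.87 and 18.02 CPM with BMP2 added, 0.139 and 0 CPM in the MTΔECad controls and 2.03 and 1.44 CPM with rosiglitazone. It rose in the BMP2 and rosiglitazone groups, and the MEK inhibitor libraries overlapped their controls. As said at the start, it is not known here whether the BMP2 group also received rosiglitazone. With BMP2 Lamb3 rose 15.4-fold over the MEK inhibitor (log2 fold change 3.94 ± 0.25; edgeR adjusted p = 6.6e-11). In MTΔECad cells the 2 rosiglitazone libraries held 31 and 21 counts and the controls 2 and 0, which makes the treated level 26.5 times that of the control (6.97 to 224 by counting error alone, at 95%). The fitted value there, 4.57 ± 0.66 (edgeR adjusted p = 3.8e-05), became 7.81 without MTΔECad control replicate 1 and 3.57 without replicate 2. Between the untreated lines the same 2 counts gave a ratio of 0.0494 (0.0058 to 0.19), with a fitted value of -4.18, -7.42 without MTΔECad control replicate 1 and -3.19 without replicate 2.

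Lama3, the α chain of the same laminins, was at 1.79 and 1.44 CPM in the Py2T-LT controls, 2.45 and 3.07 CPM with the MEK inhibitor, 3.35 and 2.62 CPM with BMP2 added, 10.7 and 6.63 CPM in the MTΔECad controls and 11.1 and 9.97 CPM with rosiglitazone. Its libraries with BMP2 and with the MEK inhibitor overlapped and lay above the controls. The change was called with BMP2 plus MEK inhibitor against the control, at 0.87 ± 0.31 (edgeR adjusted p = 0.028), but not without BMP2 plus MEK inhibitor replicate 1 (0.69) or Py2T-LT control replicate 2 (0.73), and for the MEK inhibitor it was 0.78 (edgeR adjusted p = 0.092). Lama3 was higher in the MTΔECad controls than in the Py2T-LT controls, by 2.41 ± 0.26 (edgeR adjusted p = 8.2e-08).

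Rosiglitazone raised Lama4 and Lamc3. Lama4, the α chain of the basement membrane of vessels, muscle and fat cells, was at 39.5 and 38.1 CPM in the Py2T-LT controls, 29.1 and 24.6 CPM with the MEK inhibitor, 39.3 and 35.3 CPM with BMP2 added, 115 and 105 CPM in the MTΔECad controls and 263 and 227 CPM with rosiglitazone. The rosiglitazone libraries stood above all others, at 1.16 ± 0.09 against their control (edgeR adjusted p = 5.6e-09), and the untreated lines differed by 1.5 ± 0.10 (edgeR adjusted p = 2.4e-11). In Py2T-LT it was lower with the MEK inhibitor (-0.53 ± 0.10; edgeR adjusted p = 0.00084) and higher when BMP2 was added to it (0.47 ± 0.10; edgeR adjusted p = 0.001). Lamc3, a γ chain of narrow tissue range, had 10.2 and 6.26 CPM in the MTΔECad controls, 49.96 and 42.07 CPM with rosiglitazone and at most 0.407 CPM in the Py2T-LT libraries. It was called higher with rosiglitazone (2.50 ± 0.17; edgeR adjusted p = 9e-10) and higher in MTΔECad than in Py2T-LT controls (4.55 ± 0.35; edgeR adjusted p = 4.4e-10). The adipocyte markers given above, apart from Pparg, were also higher with rosiglitazone in MTΔECad, and their part was not tested. The 7 endothelial markers in the table summed to 0.469 to 2.74 CPM over the 10 libraries. Per kilobase, Lamc3 stood at 1.35 ± 0.453 in the MTΔECad controls and 7.55 ± 0.915 with rosiglitazone (SD, n = 2), where Lamc1 stood at 63.1 ± 7.61 and 51.7 ± 4.55.

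**Figure D4:**
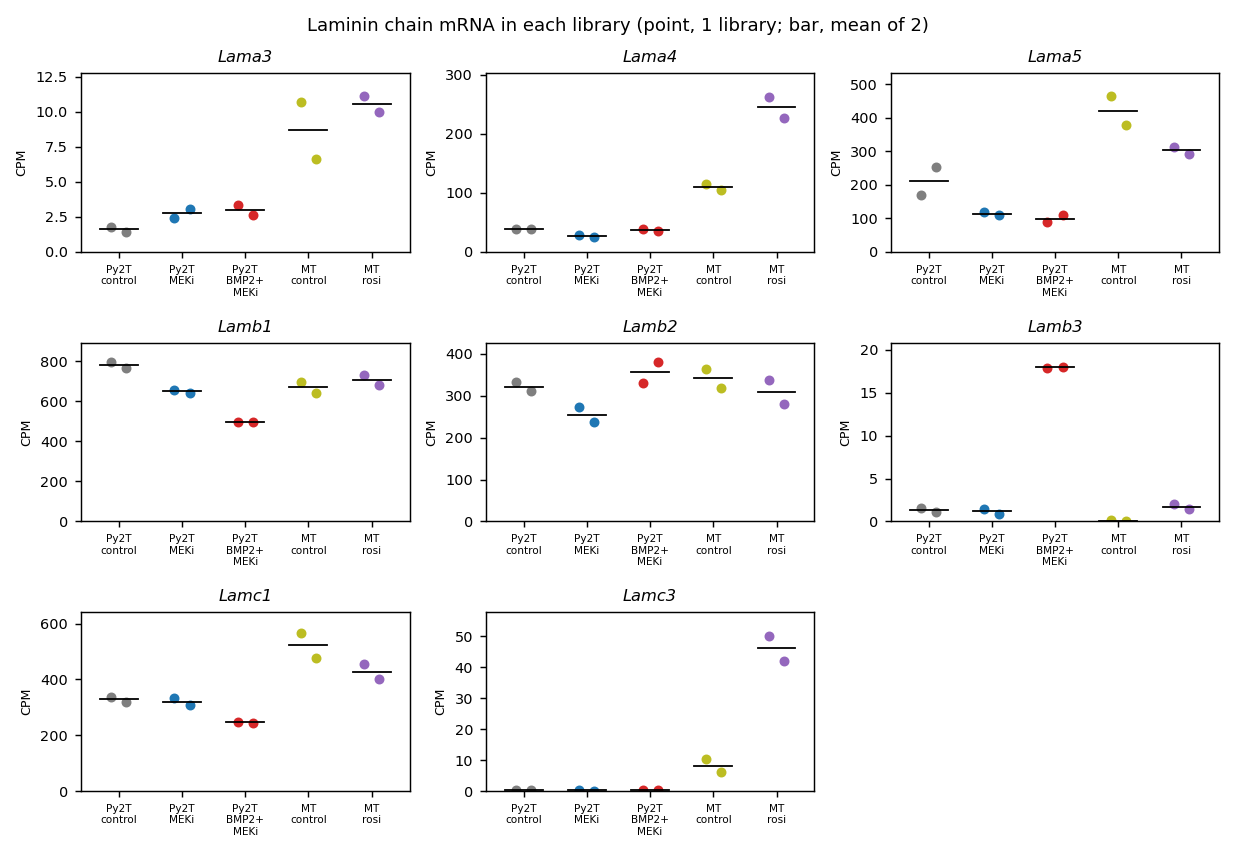
CPM (y axes, from 0) of 8 tested laminin genes in each of the 10 libraries; points are libraries, bars are the mean of the 2 libraries of a group, and MT is MTΔECad. Lamb3 is high only with BMP2 (17.87 and 18.02 CPM), Lamc3 is above 1 CPM only in MTΔECad, and Lama4 is highest with rosiglitazone (263 and 227 CPM).

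Lama5, the α chain of most epithelial basement membranes, was at 170 and 253 CPM in the Py2T-LT controls, 118 and 109 CPM with the MEK inhibitor, 88.3 and 110 CPM with BMP2 added, 465 and 377 CPM in the MTΔECad controls and 314 and 293 CPM with rosiglitazone. The Py2T-LT controls lay above both treated groups and were uneven, and the MTΔECad controls lay above all other libraries. The change with the MEK inhibitor was -0.89 ± 0.21 (edgeR adjusted p = 0.034), and 0.14 was the edgeR adjusted p when only the groups compared were fitted. The change with BMP2 plus MEK inhibitor was -1.09 ± 0.21 (edgeR adjusted p = 0.0072), and 0.99 ± 0.21 between the untreated lines (edgeR adjusted p = 0.0057). When only the groups compared were fitted, the first had an edgeR adjusted p of 0.096 and the second of 0.10. With rosiglitazone Lama5 had a log2 fold change of -0.47 ± 0.21 (edgeR adjusted p = 0.24), which passed with only the groups compared (edgeR adjusted p = 0.00075) and with no filter on counts (edgeR adjusted p = 3.7e-07). Hspg2, which encodes the basement membrane proteoglycan perlecan, was uneven too, at 101 and 415 CPM in the Py2T-LT controls.

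Per kilobase, Lama4 stood at 0.791 and 0.731 times the level of Lama5 with rosiglitazone and at 0.233 and 0.264 times in the MTΔECad controls. In Py2T-LT the ratio was 0.219 and 0.142 in the controls, 0.232 and 0.213 with the MEK inhibitor and 0.42 and 0.303 with BMP2 added. Lama5 was the higher of the pair in every library by union exon length, but when the longest transcript was used as the length Lama4 stood above Lama5 in the rosiglitazone group. Lama2, the α chain of muscle laminin, had at most 9 counts in any library.

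The common β and γ chains changed less. Lamb1, the β chain of laminins α1β1γ1, α4β1γ1 and α5β1γ1, lay between 495 and 797 CPM and was lower in both treated Py2T-LT groups than in the controls, at -0.27 with the MEK inhibitor (edgeR adjusted p = 0.012) and -0.66 ± 0.07 with BMP2 plus MEK inhibitor (edgeR adjusted p = 1.8e-07). Lamb2, the β chain that replaces Lamb1 in laminins α4β2γ1 and α5β2γ1, lay between 236 and 380 CPM and was higher with BMP2 than with the MEK inhibitor, at 0.48 ± 0.10 (edgeR adjusted p = 0.001). Per kilobase, Lamb2 stood at 1.09 and 1.25 times the level of Lamb1 with BMP2, 0.678 and 0.597 times with the MEK inhibitor and 0.679 and 0.658 times in the controls; by longest transcript Lamb1 remained above Lamb2 with BMP2 too. Lamc1, the γ chain of nearly all laminins, lay between 245 and 566 CPM and was lower with BMP2 than with the MEK inhibitor (-0.38; edgeR adjusted p = 0.0015) and lower with rosiglitazone (-0.29; edgeR adjusted p = 0.028).

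Several of the smaller calls were lost when 1 library was left out, most of them for more than one choice of library. With the MEK inhibitor, 3 calls were lost without Py2T-LT control replicate 1 (Itga3 -0.28, Lamb1 -0.24 and Lamb2 -0.28) and 2 without replicate 2 (Itga3 -0.32 and Itga7 -0.44). Without MEK inhibitor replicate 1, 3 were lost (Itga7 -0.46, Lama5 -0.95 and Lamb1 -0.28), and without replicate 2 so were 5 (Itga3 -0.23, Itga7 -0.69, Lama5 -0.84, Lamb1 -0.25 and Lamb2 -0.23). With BMP2 plus MEK inhibitor against the control, Itga6 was lost without BMP2 plus MEK inhibitor replicate 1 (0.14) or Py2T-LT control replicate 2 (0.18), and Itgb4 without BMP2 plus MEK inhibitor replicate 2 (-0.26) or Py2T-LT control replicate 1 (-0.26). Against the MEK inhibitor, Itga7 was lost without BMP2 plus MEK inhibitor replicate 2 (0.39). Itgb1 was lost there without BMP2 plus MEK inhibitor replicate 1 (0.15) or either MEK inhibitor replicate (0.23 and 0.22), and Itga6 without BMP2 plus MEK inhibitor replicate 2 (-0.13) or either MEK inhibitor replicate (-0.21 and -0.21). With rosiglitazone, Itgb5 and Lamc1 were lost without rosiglitazone replicate 2 (-0.23 and -0.20) or MTΔECad control replicate 1 (-0.30 and -0.16), and Itgb5 also without MTΔECad control replicate 2 (-0.29). Between the lines, Lamb1 was lost without Py2T-LT control replicate 1 (-0.19) or MTΔECad control replicate 2 (-0.16).

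The ligands of these receptors were read from a list of 23 matrix genes, of which 18 were tested. With BMP2 against the MEK inhibitor 7 of the 18 were higher and 8 lower, where 17.9% and 19.4% of all tested genes were, with a median of -0.11 (0.005 over all tested genes). Npnt, which encodes nephronectin, a ligand of α8β1, was at 2.4 and 2.12 CPM in the Py2T-LT controls, 2.33 and 1.75 CPM with the MEK inhibitor, 24.5 and 27.8 CPM with BMP2 added, 0.139 and 0.0626 CPM in the MTΔECad controls and 0.393 and 0.275 CPM with rosiglitazone. The MEK inhibitor libraries, in which Itga8 was already high, overlapped the controls for Npnt, and the BMP2 libraries did not; the change with BMP2 was 3.69 ± 0.19 (edgeR adjusted p = 1.8e-12). With the MEK inhibitor alone 3 ligand genes were higher and 6 lower, where 8.98% and 7.52% of all tested genes were, with a median of -0.12 (0.011). Edil3, a ligand of αvβ3 and αvβ5, was higher at 2.96 ± 0.25 (edgeR adjusted p = 3.1e-08) and Vcam1, a ligand of α4β1, at 2.14 ± 0.21 (edgeR adjusted p = 2.9e-07). Both were among the 8 ligand genes called lower when BMP2 was added. Edil3 went from 11.3 and 10.1 CPM with the MEK inhibitor to 1.54 and 0.756 CPM with BMP2. Vcam1 went from 6.14 and 4.93 CPM to 0.602 and 0.639 CPM. Thbs2, which encodes thrombospondin 2, was lower with the MEK inhibitor alone than in the controls, at -1.61 ± 0.09 (edgeR adjusted p = 6.7e-11).

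In MTΔECad, rosiglitazone left 3 of the 18 ligand genes higher and 4 lower, where 7.95% and 5.26% of all tested genes were, with a median of 0.09 (-0.023 over all tested genes). Thbs2 was lower there too, at -1.24 ± 0.08 (edgeR adjusted p = 4.4e-10), while Vcam1 was higher at 0.69 ± 0.11 (edgeR adjusted p = 0.0001). Between the untreated lines 11 were higher in MTΔECad and 3 lower, where 29.3% and 31.7% of all tested genes were, with a median of 1.05 (-0.029). Col3a1, a fibrillar collagen, and Postn, which encodes the αv ligand periostin, differed by 8.77 ± 0.15 (edgeR adjusted p = 4.1e-19) and 7.99 ± 0.14 (edgeR adjusted p = 3e-20).

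**Figure D5:**
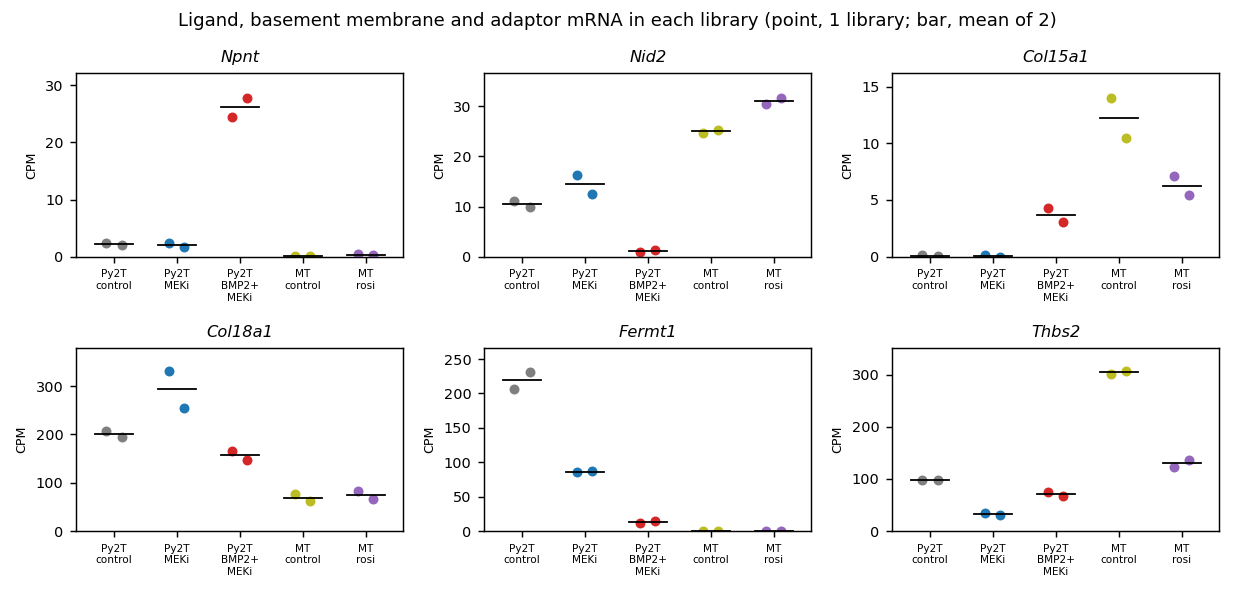
CPM (y axes, from 0) of 6 genes of integrin ligands, basement membrane and integrin adaptors in each of the 10 libraries; points are libraries, bars are the mean of the 2 libraries of a group, and MT is MTΔECad. Npnt is high only with BMP2 (24.5 and 27.8 CPM), Fermt1 falls from 207 and 231 CPM in the Py2T-LT controls to 11.8 and 13.9 CPM with BMP2, and Nid2 is lowest with BMP2.

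All 14 basement membrane partners of the laminins were tested. With the MEK inhibitor 4 were higher and 1 lower (median 0.10), where 8.98% and 7.52% of all tested genes were. With BMP2 plus MEK inhibitor 2 were higher and 6 lower against the control (median -0.27), where 19.1% and 19.4% of all tested genes were. Against the MEK inhibitor 1 was higher and 5 lower (median -0.31), where 17.9% and 19.4% of all tested genes were. Nid2, which encodes nidogen 2, the link between laminin and collagen IV, was at 11.1 and 9.81 CPM in the Py2T-LT controls, 16.3 and 12.5 CPM with the MEK inhibitor and 1.0 and 1.34 CPM with BMP2 added. The BMP2 libraries stood apart below, at -3.59 ± 0.21 against the MEK inhibitor (edgeR adjusted p = 1.2e-11). Nid1, which encodes nidogen 1, was higher with BMP2 plus MEK inhibitor than in the control, at 0.92 ± 0.10 (edgeR adjusted p = 1.5e-07). Col15a1, a basement membrane collagen of the interstitial side, was counted 64 and 53 times with BMP2 and 2 and 0 times with the MEK inhibitor, a ratio of 61.4 (95% counting interval 16.6 to 513). Its fitted change, 5.77, was 8.86 without MEK inhibitor replicate 1 and 4.74 without replicate 2. Of the 4 called higher with the MEK inhibitor, Nid2 (0.46) was not called with DESeq2 or with only the groups compared. Without MEK inhibitor replicate 1 Nid2 was at 0.26, and Col18a1 at 0.34 instead of 0.54. Hspg2 (-2.39 with BMP2 plus MEK inhibitor against the control) was not called with a replicate block or with only the groups compared. Without Py2T-LT control replicate 2 Hspg2 was at -1.04.

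Rosiglitazone left 0 of the 14 higher by edgeR (2 at an unadjusted p under 0.05, and 0 by DESeq2) and 2 lower (median -0.21), where 7.95% and 5.26% of all tested genes were. Col15a1 was one of the 2, at -0.96 ± 0.21 (edgeR adjusted p = 0.0031), though not without rosiglitazone replicate 2 (-0.79) or MTΔECad control replicate 1 (-0.75). Between the untreated lines 6 were higher in MTΔECad and 6 lower (median -0.12), where 29.3% and 31.7% of all tested genes were. Col4a3, an α chain of specialised collagen IV networks, had 108 and 130 counts in the Py2T-LT controls and 0 in each MTΔECad library.

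Of the 14 other laminin receptors and hemidesmosome genes 12 were tested, and 3 were higher and 2 lower with BMP2 than with the MEK inhibitor, where 17.9% and 19.4% of all tested genes were. Cd82, which encodes a tetraspanin that associates with integrins, was lower with BMP2 plus MEK inhibitor than in the control, at -1.26 ± 0.10 (edgeR adjusted p = 1.4e-09). Sdc1, which encodes the heparan sulfate receptor syndecan 1, was higher with BMP2 plus MEK inhibitor (0.61 ± 0.08; edgeR adjusted p = 2e-06) and lower with rosiglitazone (-0.61 ± 0.08; edgeR adjusted p = 8.8e-06). With the MEK inhibitor alone 1 of the 12 was higher and 4 lower, where 8.98% and 7.52% of all tested genes were, and between the lines 6 were higher and 5 lower, where 29.3% and 31.7% were. With rosiglitazone 2 were lower and 0 higher by edgeR (0 at an unadjusted p under 0.05, and 0 by DESeq2), where 5.26% and 7.95% of all tested genes were.

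Inside the cell, 32 genes of integrin-binding adaptors and kinases were tested. With the MEK inhibitor 0 were higher by edgeR (3 at an unadjusted p under 0.05, and 1 by DESeq2) and 8 lower, where 8.98% and 7.52% of all tested genes were. With BMP2 added 8 were higher and 7 lower against the MEK inhibitor, near the shares of all tested genes (17.9% and 19.4%). With rosiglitazone 3 were higher and 3 lower, where 7.95% and 5.26% of all tested genes were, and in MTΔECad against Py2T-LT controls 14 were higher and 7 lower, where 29.3% and 31.7% were. Fermt1, which encodes kindlin 1, the epithelial activator of β1 and β3 integrins, was at 207 and 231 CPM in the Py2T-LT controls, 85.6 and 87.1 CPM with the MEK inhibitor and 11.8 and 13.9 CPM with BMP2 added. It thus fell at each step without overlap, by a log2 fold change of -1.34 ± 0.09 with the MEK inhibitor (edgeR adjusted p = 1.9e-09) and a further -2.74 ± 0.11 with BMP2 (edgeR adjusted p = 7e-14). The MTΔECad libraries held at most 1 count of Fermt1. Kank1, which encodes an adaptor that binds talin at the rim of adhesions, was at 0.696 and 1.0 CPM in the MTΔECad controls and 6.23 and 4.54 CPM with rosiglitazone, a change of 2.65 ± 0.27 (edgeR adjusted p = 2.3e-07).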

How the data were processed

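RNA was taken from 2 independent experiments and sequenced on an Illumina HiSeq 2500, per the labels' protocols. Those protocols name a stranded total RNA kit and also poly-A RNA, so how the RNA was selected is not settled here. The authors deposited 1 table of whole-number read counts per gene for the 10 libraries; alignment used STAR (version not given) and the mm10 build, per the submitters' processing notes, while no source used here names the counting tool, its annotation or its use of strand. Gene IDs were paired with symbols through RefSeq (18057 of 18103 matched). Counts were fitted here with edgeR 4.0.16 (limma 3.58.1, R 4.3.3): TMM scaling, filterByExpr (minimum count 10), 1 mean per group over all 10 libraries and glmQLFTest with robust dispersion, with Benjamini-Hochberg adjustment over 13149 genes and a threshold of 0.05. The common dispersion came to a biological coefficient of variation of 7.07%. The script was tested on simulated data. CPM use TMM library sizes, and levels of different genes are compared as CPM per kilobase of union exon length (GENCODE M21). SE is the standard error of the fitted log2 fold change. Alternatives were DESeq2 1.42.0, RLE size factors in edgeR, no filter or a stricter one (1 CPM in 2 libraries), only the groups compared, a replicate block, each library left out and the longest transcript as length.

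The genes and lists were chosen with earlier results of these data known. Values in each library are given for genes with a called log2 fold change of at least 1 in size and a group mean of at least 1 CPM. Exceptions are Itga5, Itga10 and Itgb7, and Lamc3 in Py2T-LT, which are given by range or highest value. Itga3, whose called changes were smaller, is given in full. Up to 3 called genes per list and comparison with the largest change are named. Exceptions include Nid1 with BMP2 plus MEK inhibitor against the control and Nid2 with the MEK inhibitor, where other basement membrane partners changed more. The other matrix, receptor and adaptor lists hold textbook members. One gene found by the rule is not reported here, and no count of the described genes includes it.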

Additional observations from a re-analysis of the deposited data

How the results depend on the processing

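Of 130 pairs of a tested gene and a comparison, 77 were called; 57 kept the call under every alternative run, 20 lost it under at least 1 and 0 called values changed sign. Of the pairs not called, 11 were called under at least 1 alternative, and 18 changed sign when at least 1 library was left out. With the MEK inhibitor 7 genes were lower, and 2 to 5 were when each library was left out in turn. With rosiglitazone 4 genes were lower, 8 with no filter on counts, 7 with only the groups compared, and 1 to 5 with a library left out (1 without rosiglitazone replicate 2 or MTΔECad control replicate 1). For these fits a group left with 1 library was assumed to vary like the others. The other counts of higher and lower genes stayed within 1.5 times. The replicate block gave 4 higher and 6 lower with the MEK inhibitor, 8 and 10 with BMP2 plus MEK inhibitor, 9 and 9 against the MEK inhibitor, 4 and 5 with rosiglitazone, and 13 and 9 between the lines. Deviations of same-numbered libraries correlated at -0.106 to 0.1 over the 10 pairs of groups, so the numbers were not taken to pair the libraries, which come from 2 independent experiments. Under the block Lama5 was not called with the MEK inhibitor, and Itga2b was called with rosiglitazone. Levels per kilobase depend on the transcript length used, and genes under about 10 counts per library cannot be ranked at this depth.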

Other observations

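Itgad, which encodes the leukocyte subunit αD that pairs with β2, has a symbol outside the set described above and was noticed among the neighbours of Itgax after its values were seen. It was counted 58 and 40 times with BMP2 plus MEK inhibitor, 0 and 0 times with the MEK inhibitor, 1 and 0 times in the Py2T-LT controls, 5 and 6 times with rosiglitazone and 0 and 0 times in the MTΔECad controls. It appeared in the groups in which Itgb2, its β partner, was lowest. Here too it is not known whether the BMP2 group also received rosiglitazone.

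G0s2, which encodes an inhibitor of the fat cell lipase ATGL, was also noticed after its values were seen. It is the nearest gene in the count table before Lamb3 on chromosome 1, with 21164 bases between them and on the opposite strand. Its levels were 1.29 and 0.874 CPM in the Py2T-LT controls, 6.26 and 5.31 CPM with the MEK inhibitor, 14.5 and 12.7 CPM with BMP2 added, 0.139 and 0 CPM in the MTΔECad controls and 7.61 and 6.6 CPM with rosiglitazone. Unlike Lamb3, whose MEK inhibitor libraries overlapped the controls, G0s2 was higher with the MEK inhibitor alone (2.40 ± 0.27; edgeR adjusted p = 1.6e-06). Both genes were called higher with BMP2 against the MEK inhibitor, G0s2 by 1.24 ± 0.18 (edgeR adjusted p = 1.5e-05), and both had 2 and 0 counts in the MTΔECad controls. That the BMP2 group may also have received rosiglitazone applies to this pair too.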
